A study of Mus musculus with 10 samples.

Results

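Adipocyte genes were described in whole mammary tumour tissue of MMTV-PyMT mice, as a measure of how much fat each tumour library held. The 34 genes were taken by name from a list of adipocyte lipid storage, lipolysis, adipokine and regulator genes, and all 34 were found among the 57010 genes counted. In 3 of the 10 libraries most of these genes stood above the other libraries: in a pair of RHBDL4 knockout tumours and in 1 library labelled as a wild-type tumour. In the other 7 libraries most of them were low, and in 5 of those 7 the most adipocyte-restricted ones were near 0. The direction of the difference between knockout and wild type turned with the library labelled wild type, whose level of the targeted gene lay within the knockout range before scaling: 31 of 33 tested genes were lower in knockout with all 10 libraries, and 32 of 33 were higher in knockout once that library was left out. No adipocyte gene passed the edgeR test in either comparison, where 0% and 0.0105% of all genes passed. Of all genes, 43.8% were higher in knockout with that library and 53.2% without it. By limma-voom with sample quality weights, 15 of 33 adipocyte genes were higher in knockout without it.

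All tumours carried the MMTV-PyMT transgene, in which a mouse mammary tumour virus promoter drives a viral oncogene in mammary epithelium. The knockout group was PyMT; RHBDL4 -/- (5 libraries) and the wild-type group PyMT; RHBDL4 +/+ (5 libraries). All were untreated and collected 5 weeks after tumour onset, and the animals' age is not in the labels used here. RHBDL4, encoded by Rhbdd1, belongs to the rhomboid proteases and sits in the endoplasmic reticulum membrane. The libraries are called KO1 to KO5 and WT1 to WT5 here, numbered in the order of the samples.

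The mouse mammary gland is embedded in a fat pad, so that a dissected mammary tumour can carry fat tissue at its edge or between its lobes. Adipocytes store triacylglycerol in droplets coated by perilipins, release fatty acids and glycerol through a chain of lipases under adrenergic control, and secrete hormones such as adiponectin and leptin. The nuclear receptor PPAR-gamma and the C/EBP factors drive their differentiation and many of their genes. Several of the 34 genes are also used outside fat: Fabp4 and Cd36 in endothelium and macrophages, Lpl, Slc2a4, Car3 and Gpd1 in muscle, and Pnpla2, Mgll, Pcx, Cebpa and Adipor2 in many tissues.

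The promoters of 5 of the genes are shown because the libraries are told apart by them: Adipoq, Plin1, Cidec and Lep are the most adipocyte-restricted members, and Ucp1 is the marker of brown and beige fat. Each sequence is the 250 bases before the start of the gene, 5′ to 3′ on the gene's own strand, from RefSeq on GRCm38.p6, whereas the counts used another build. The windows are chr16:23146286-23146535 (plus strand) for Adipoq, chr7:79732777-79733026 (minus strand) for Plin1, chr6:113435761-113436010 and chr6:113434765-113435014 (minus strand) for 2 starts of Cidec, of which the second is printed, chr6:29059971-29060220 (plus strand) for Lep and chr8:83290098-83290347 (plus strand) for Ucp1. Capitals mark matches to the C/EBP core TTGCNNAA in Plin1, Cidec and Lep and to the nuclear receptor hexamer AGGTCA in Ucp1, searched on both strands.
Adipoq: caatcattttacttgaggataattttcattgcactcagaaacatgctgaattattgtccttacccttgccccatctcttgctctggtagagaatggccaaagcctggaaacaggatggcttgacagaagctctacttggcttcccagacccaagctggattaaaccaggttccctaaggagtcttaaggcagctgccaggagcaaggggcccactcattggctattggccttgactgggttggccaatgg
Plin1: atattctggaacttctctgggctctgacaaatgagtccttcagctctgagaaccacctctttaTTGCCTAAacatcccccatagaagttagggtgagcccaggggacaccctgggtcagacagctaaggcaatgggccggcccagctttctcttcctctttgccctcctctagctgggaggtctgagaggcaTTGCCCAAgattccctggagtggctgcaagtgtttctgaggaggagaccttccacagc
Cidec: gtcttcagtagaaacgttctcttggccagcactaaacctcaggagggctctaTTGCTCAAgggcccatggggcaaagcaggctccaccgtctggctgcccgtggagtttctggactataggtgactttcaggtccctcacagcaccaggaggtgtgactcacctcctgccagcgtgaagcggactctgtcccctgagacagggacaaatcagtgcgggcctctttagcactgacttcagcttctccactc
Lep: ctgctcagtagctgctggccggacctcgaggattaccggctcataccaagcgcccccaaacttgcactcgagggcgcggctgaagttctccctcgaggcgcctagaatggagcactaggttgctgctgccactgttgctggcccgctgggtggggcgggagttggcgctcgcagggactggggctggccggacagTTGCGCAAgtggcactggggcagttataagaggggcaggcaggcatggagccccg
Ucp1: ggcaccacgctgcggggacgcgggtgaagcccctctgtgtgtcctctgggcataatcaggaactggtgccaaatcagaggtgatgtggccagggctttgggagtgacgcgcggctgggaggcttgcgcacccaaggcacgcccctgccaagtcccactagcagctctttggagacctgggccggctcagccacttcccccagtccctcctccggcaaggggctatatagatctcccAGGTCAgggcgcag
The C/EBP core lay at -187 to -180 and -58 to -51 from the start of Plin1, at -198 to -191 in Cidec and at -55 to -48 in Lep, and no match to the core or the hexamer lay in the Adipoq window or the other Cidec window. The hexamer lay at -14 to -9 in Ucp1. Promoters of 25 of the 34 genes were in the RefSeq table. Some have several starts, so that there were 35 windows. The core was in 5 of these 35 (of Cidec, Lep, Plin1, Pparg and Rbp4), or 14.3%, against 9.56% of all 32851 promoter windows. The hexamer was in 7 of 35 (of Aqp7, Cd36, Plin5, Pparg and Ucp1), or 20.0%, against 14.0%, and the TATA letters TATAAA were in 3 of 35, or 8.57%, against 12.4%. The hexamer repeated after 1 base, the arrangement to which PPAR-gamma and its partner bind, was in 0 of 35 and in 0.0335% of all windows. A match of letters is a description and does not show binding.

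Libraries held 25.7 to 43.3 M counts. The library labelled WT5 stood apart from the other 9: skeletal muscle genes took 9.18% of its counts against at most 0.175%, luminal epithelial genes 0.00964% against 0.580% to 0.862%, and mitochondrially encoded genes 17.5% against 3.25% to 4.58%. Its Rhbdd1 level of 14.6 CPM (counts per M counts of the library) lay within the knockout range of 13.4 to 24.0 CPM, below 35.9 to 45.7 CPM in WT1 to WT4, while after TMM scaling it was 25.0 CPM against at most 22.3 CPM in knockout. Every library had a batch label of its own, so batch and genotype cannot be told apart, and what a batch marks is not stated. Library names begin with the same number in KO3 and KO4, in WT1 and WT2 and in WT3 and WT4, but what that number marks is not stated. In a GRCm38 annotation 13 of the 34 genes overlap another gene, Mgll and Ces1d on the same strand, and with the strand setting of the counting not stated, reads of such partners may be mixed. No label assigns libraries to animals, so whether libraries that share a leading number are independent is not known, and the tests treat them as such. The p-values measure only the spread between these samples, which may be technical.

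The 34 adipocyte genes together took 0.0681%, 0.525%, 0.0872%, 0.466% and 0.0796% of all counts in KO1 to KO5. In WT1 to WT5 they took 0.0806%, 0.0683%, 0.144%, 0.0929% and 2.77%. KO2, KO4 and the library labelled WT5 were high, WT3 was next, and the other 6 lay between 0.0681% and 0.0929%. Counting error was far smaller than these gaps: the 95% Wilson intervals were 0.522% to 0.528% in KO2, 0.464% to 0.469% in KO4, 0.143% to 0.145% in WT3 and 2.77% to 2.78% in the library labelled WT5. These intervals cover counting error only. Adipoq, Plin1, Cidec and Lep alone took 0.0362% of counts in KO2, 0.0239% in KO4, 0.00393% in WT3 and 0.0961% in the library labelled WT5, and at most 0.00114% in each of the other 6. Among those 6 the share of the 34 genes did not follow Adipoq. WT1, with 1 Adipoq count, held 0.0806%, and KO1, with 44, held 0.0681%. Widely expressed genes such as Pnpla2 and Mgll enter that share in every library (126 and 152 CPM in KO1, 172 and 249 CPM in WT1).

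**Figure D1:**
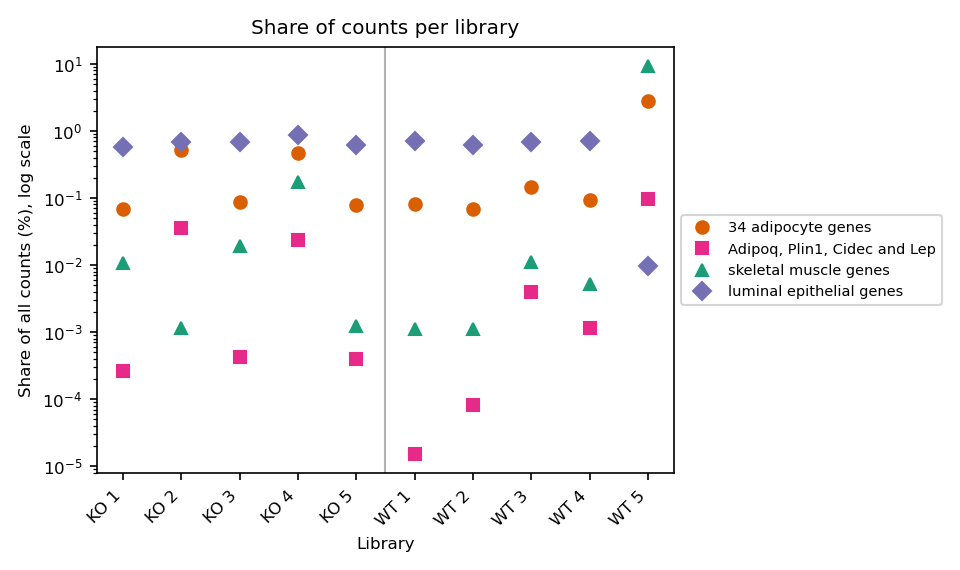
Share of all counts (%, log scale) taken by the 34 adipocyte genes, by Adipoq, Plin1, Cidec and Lep alone, by skeletal muscle genes and by luminal epithelial genes in each of the 10 libraries, 1 point per library. KO2 (0.525%), KO4 (0.466%) and the library labelled WT5 (2.77%) have the highest adipocyte shares, and the library labelled WT5 alone has a low luminal share.

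The mean adipocyte share was 0.245% ± 0.230 over the 5 knockout libraries (SD, n = 5). It was 0.632% ± 1.20 over the wild-type libraries (SD, n = 5) and 0.0965% ± 0.0334 without the library labelled WT5 (SD, n = 4). The groups overlapped both with and without that library: KO3 and KO5 lay within the range of WT1 to WT4, and KO1 close to its lower end. The ratio of the means, knockout over wild type, was 0.388 with all libraries and 2.54 without the library labelled WT5. In bulk tissue a smaller number of adipocytes and less adipocyte RNA per cell cannot be told apart. The share in KO4 was 5.35 times that in KO3, whose name begins with the same number, and the share in the library labelled WT5 was 5.28 times that in KO2. For Adipoq alone the library labelled WT5 was 1.99 times KO2. Car3, Gpd1 and Lpl, which muscle also uses, enter the share, and skeletal muscle genes took 9.18% of counts in that library. The part of muscle in the 5.28 was not tested.

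Gene by gene the order was much the same. Among the 9 libraries without the one labelled WT5, 24 of 34 adipocyte genes were highest in KO2 and 9 in KO4, and G0s2 was highest in WT3. Of all 19016 genes tested in these libraries, 11.8% were highest in KO2 and 12.7% in KO4. KO2 and KO4 were the top pair for 28 of 34 adipocyte genes and for 4.40% of all genes. With all 10 libraries, 31 of 34 were highest in the library labelled WT5, the exceptions being Lep, Nnat and G0s2, against 16.1% of all genes, and 24 of 34 were there over 2-fold above the highest of the other 9, against 7.33% of all genes. These ranks are of unscaled CPM. On TMM-scaled CPM 33 of 34 were highest in that library, with Nnat the exception, and among the 9 libraries 20 were highest in KO2 and 13 in KO4. KO4 was above KO3 for 34 of 34 adipocyte genes (51.6% of all genes) and WT3 above WT4 for 33 of 34, with Nnat the exception (53.7% of all genes). The adipocyte genes also spread widely: 26 of 34 ranged over more than 10-fold, or had a library at 0, across the 9 libraries, against 11.4% of all genes.

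**Figure D2:**
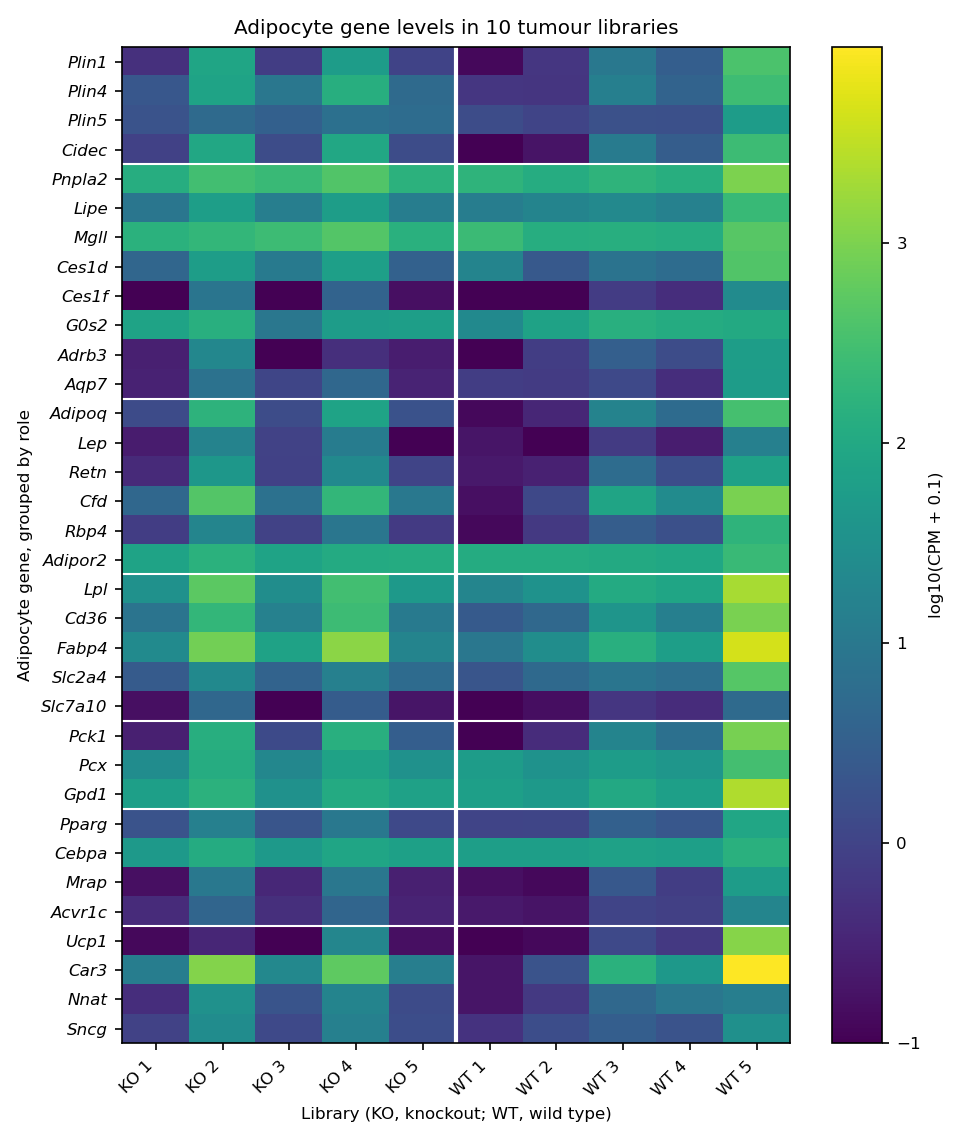
Level of each of the 34 adipocyte genes (rows, grouped by role) in the 10 libraries (columns), as log10 of CPM plus 0.1. The columns of KO2, KO4 and the library labelled WT5 are bright for most genes, whereas Adipor2, Cebpa, Pnpla2, Mgll and Gpd1 are measurable in every library.

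Fold changes come from fits on TMM-scaled counts, whereas the levels given are CPM without that scaling, which multiplies the level of the library labelled WT5 by more than that of the others (its TMM factor was 0.588, against 1.01 to 1.10). In the comparison with all 10 libraries, 33 adipocyte genes passed the low-count filter and Ucp1 did not. Lep and Nnat were higher in knockout and the other 31 lower, with a median log2 fold change of -1.84 (log2 of knockout over wild type; median of all 18577 genes -0.06, of which 43.8% were higher). By edgeR's quasi-likelihood test 0 of 33 passed an adjusted p under 0.05, where 0% of all genes passed, and adjusted p-values ran from 0.669 to 0.985. At an unadjusted p under 0.05 there were 2 of 33, Slc2a4 and Gpd1, against 7.00% of all genes. DESeq2 called 0 of the 14 adipocyte genes for which it gave an adjusted p (0.322% of all genes), and limma-voom with sample quality weights called 0 of 33 (0.0915% of all genes). For no adipocyte gene were the groups free of overlap in TMM-scaled CPM, which held for 1.99% of all genes.

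In the comparison without the library labelled WT5, 32 of 33 tested adipocyte genes were higher in knockout, with a median log2 fold change of 1.92 (median of all 19016 genes 0.03, of which 53.2% were higher). By edgeR 0 of 33 were called, where 0.0105% of all genes were, with adjusted p-values from 0.279 to 0.989. At an unadjusted p under 0.05 there were 3 of 33, Plin5, Lep and Plin4, against 11.6% of all genes. DESeq2 called 1 of 32, Plin5, against 2.54% of all genes, and limma-voom called 0 of 33, against 0.752%. Plin5 was also the only adipocyte gene whose groups did not overlap, against 5.44% of all genes. The voom weights were lowest in WT1, KO4 and KO3 (0.376, 0.400 and 0.510) and highest in WT4 and WT3 (3.00 and 2.60). With them 15 of 33 adipocyte genes were higher in knockout, with a median log2 fold change of -0.05. Leaving out KO2 as well left 24 of 29 higher with a median of 1.13, leaving out KO4 as well left 27 of 29 higher with a median of 1.54, and leaving out WT3 as well left 31 of 33 higher with a median of 2.61. The set of genes tested differs between these fits.

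**Figure D3:**
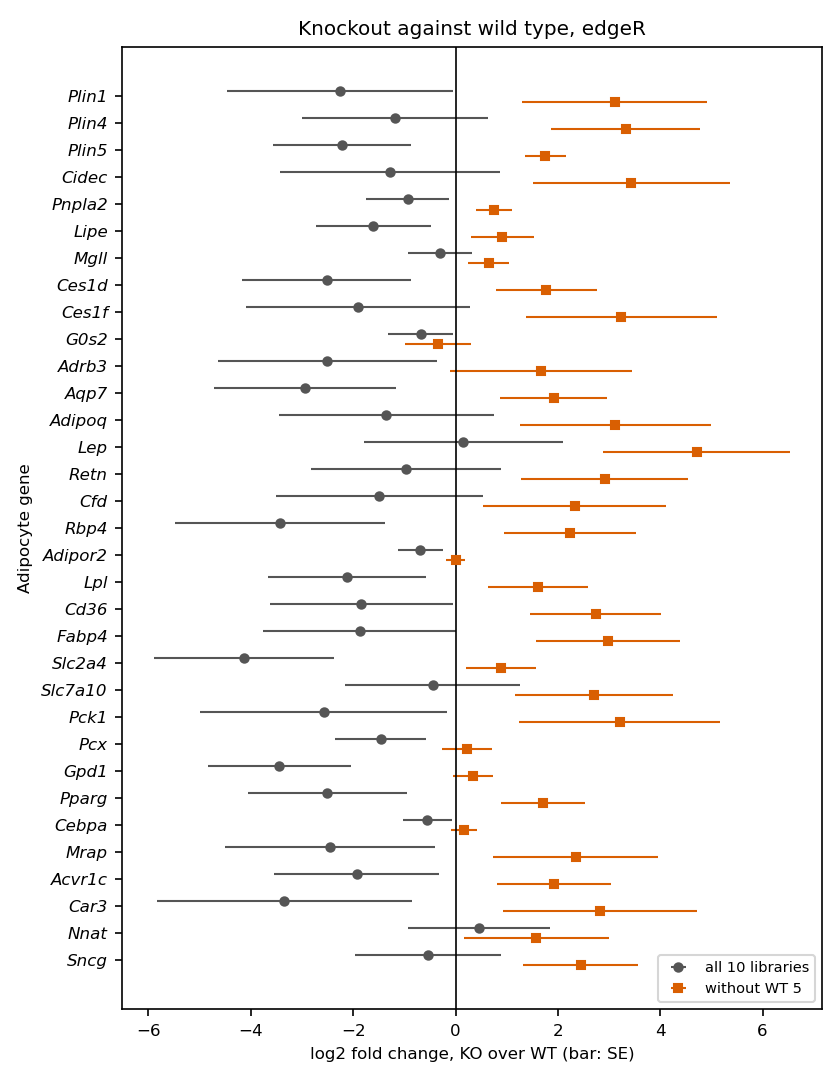
Log2 fold change of knockout over wild type by edgeR for each of the 33 tested adipocyte genes, with its SE as a bar, with all 10 libraries (circles) and without the library labelled WT5 (squares). The circles lie mostly left of 0 (median -1.84) and the squares mostly right of it (median 1.92), with wide bars.

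Of the 4 lipid droplet genes, Plin1, Plin4 and Cidec were high in the same 3 libraries, and Plin5 had a different order. Plin1 (ENSMUSG00000030546), the perilipin that coats the droplets of white adipocytes and gates their lipolysis, stood at 0.400, 84.0, 0.693, 55.3 and 0.892 CPM in KO1 to KO5 and 0.0304, 0.505, 9.75, 3.03 and 364 CPM in WT1 to WT5. It was high in KO2, KO4 and the library labelled WT5, intermediate in WT3 and WT4 and at or under 0.892 CPM in the other 5, so that the groups overlapped. Cidec (ENSMUSG00000030278), a droplet protein that lets droplets fuse and grow, stood at 0.800, 96.8, 1.31, 95.4 and 1.34 CPM in KO1 to KO5 and 0, 0.0798, 11.8, 2.85 and 255 CPM in WT1 to WT5. The same 3 libraries were high, WT3 was again the next, and WT1 was at 0. The log2 fold changes without the library labelled WT5 were 3.11 ± 1.81 for Plin1 and 3.44 ± 1.92 for Cidec (SE, edgeR adjusted p = 0.533 and 0.519), and with all 10 libraries -2.26 ± 2.21 and -1.28 ± 2.14 (adjusted p = 0.768 and 0.858). These are 2 of the promoters printed above that hold the C/EBP core.

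Plin4, another droplet coat protein of white fat, ranged from 0.479 CPM in WT2 to 132 CPM in KO4 among the 9 libraries and reached 276 CPM in the library labelled WT5. Plin5 (ENSMUSG00000011305), the perilipin of oxidative tissues such as heart, muscle and brown fat, stood at 1.80, 5.15, 3.25, 6.67 and 5.77 CPM in KO1 to KO5 and 1.34, 0.931, 1.64, 1.54 and 55.2 CPM in WT1 to WT5. All 5 knockout libraries lay above WT1 to WT4, KO1 narrowly, and the library labelled WT5 lay far above both. KO5 was the second highest knockout library for Plin5, although its Adipoq and Plin1 were close to those of KO1 and KO3. In the 9 libraries its log2 fold change was 1.75 ± 0.40 (SE), which DESeq2 called (log2 1.75, adjusted p = 0.00238) and edgeR did not (unadjusted p = 0.00152, adjusted p = 0.279), nor limma-voom (1.29, adjusted p = 0.129). With all 10 libraries it was -2.21 ± 1.35 (edgeR adjusted p = 0.677).

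Some of the 8 lipolysis genes were expressed in every library, and others were near 0 in most. Pnpla2 (ENSMUSG00000025509), adipose triglyceride lipase, which takes the first fatty acid off triacylglycerol, stood at 126, 297, 232, 417 and 159 CPM in KO1 to KO5 and 172, 120.2, 175, 132 and 975 CPM in WT1 to WT5. KO4, KO2 and the library labelled WT5 were high again, but over a narrower range. Lipe (ENSMUSG00000003123), hormone-sensitive lipase, which acts on diacylglycerol, stood at 8.75, 61.5, 13.3, 59.4 and 12.5 CPM in KO1 to KO5 and 12.6, 17.8, 21.5, 15.6 and 225 CPM in WT1 to WT5. KO2 and KO4 were close to each other, KO1 and KO5 lay below WT1 to WT4, and KO3 lay among them. Log2 fold changes in the 9 libraries were 0.75 ± 0.35 and 0.92 ± 0.61 (SE, edgeR adjusted p = 0.443 and 0.583). Mgll, the monoacylglycerol lipase of the last step, ranged from 119.6 to 449 CPM in the 9 libraries, with 249 CPM in WT1.

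Adrb3 (ENSMUSG00000031489), the adrenergic receptor through which catecholamines start lipolysis in rodent fat, stood at 0.171, 20.2, 0, 0.366 and 0.149 CPM in KO1 to KO5 and 0, 0.692, 3.14, 1.34 and 60.2 CPM in WT1 to WT5. It was high in KO2 and the library labelled WT5 and low in KO4, where the droplet genes were high. Aqp7 (ENSMUSG00000028427), the channel by which glycerol leaves the adipocyte, stood at 0.200, 7.33, 0.985, 4.60 and 0.208 CPM in KO1 to KO5 and 0.699, 0.638, 1.16, 0.356 and 55.2 CPM in WT1 to WT5. KO2, KO4 and the library labelled WT5 were above the rest. The log2 fold changes without the library labelled WT5 were 1.67 ± 1.78 for Adrb3 and 1.92 ± 1.04 for Aqp7 (SE, edgeR adjusted p = 0.740 and 0.509), and without KO2 as well that of Adrb3 turned to -2.82.

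G0s2 (ENSMUSG00000009633), a small protein that inhibits adipose triglyceride lipase, was the only adipocyte gene with a lower fitted level in knockout without the library labelled WT5. It stood at 78.3, 136, 9.45, 55.5 and 62.0 CPM in KO1 to KO5 and 22.6, 74.6, 139.9, 114 and 105 CPM in WT1 to WT5. WT3 and KO2 were highest and KO3 lowest, and the library labelled WT5 lay inside the range of the others, although after TMM scaling it was the highest, at 180.4 CPM against 129.9 CPM in WT3. The log2 fold change without that library was -0.35 ± 0.64 (SE, edgeR adjusted p = 0.861). Ces1d (ENSMUSG00000056973), a carboxylesterase that hydrolyses triacylglycerol, stood at 4.29, 58.9, 10.5, 63.6 and 3.42 CPM in KO1 to KO5 and 17.4, 2.34, 7.81, 5.53 and 429 CPM in WT1 to WT5. WT1 was the third highest of the 9 libraries here, although its droplet genes were near 0. Ces1f (ENSMUSG00000031725), a related carboxylesterase, stood at 0, 8.70, 0, 3.69 and 0.0594 CPM in KO1 to KO5 and 0, 0, 0.670, 0.356 and 25.0 CPM in WT1 to WT5. It was at 0 in 4 libraries, which at their depths allows up to 3 counts in each. Ces1d and Ces1f are close paralogs, so the split of reads between them is uncertain.

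Among the adipokines, Adipoq (ENSMUSG00000022878), which encodes adiponectin, the hormone made almost only by adipocytes, stood at 1.26, 165, 1.35, 75.7 and 1.69 CPM in KO1 to KO5 and 0.0304, 0.239, 17.1, 5.35 and 327 CPM in WT1 to WT5. KO2, KO4 and the library labelled WT5 were high, WT3 and WT4 held 17.1 and 5.35 CPM, and WT1 rested on 1 count. Lep (ENSMUSG00000059201), which encodes leptin, the hormone that reports fat stores to the brain, stood at 0.143, 16.6, 0.876, 12.2 and 0 CPM in KO1 to KO5 and 0.0912, 0, 0.647, 0.149 and 14.5 CPM in WT1 to WT5. Before scaling KO2 was the highest library and the library labelled WT5 lay between KO4 and KO2, whereas after TMM scaling that library was the highest, at 24.9 CPM against 15.1 CPM in KO2. Lep had an unadjusted p of 0.0284 without the library labelled WT5, with a log2 fold change of 4.71 ± 1.83 (SE, edgeR adjusted p = 0.377), and 0.15 ± 1.94 with all 10 libraries (adjusted p = 0.985). For Adipoq they were 3.12 ± 1.86 (adjusted p = 0.543) and -1.35 ± 2.09 (adjusted p = 0.846).

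Retn (ENSMUSG00000012705), which encodes resistin, stood at 0.286, 43.6, 0.803, 22.7 and 0.951 CPM in KO1 to KO5 and 0.122, 0.186, 5.57, 1.40 and 69.2 CPM in WT1 to WT5. Cfd (ENSMUSG00000061780), which encodes adipsin, the complement factor D secreted by fat, stood at 4.46, 447, 7.04, 200.2 and 9.96 CPM in KO1 to KO5 and 0.0608, 1.12, 81.6, 25.3 and 961 CPM in WT1 to WT5. Both kept the order of Adipoq in the 5 libraries with the most of it. Their log2 fold changes without the library labelled WT5 were 2.92 ± 1.63 and 2.33 ± 1.78 (SE, edgeR adjusted p = 0.520 and 0.637). Rbp4, the carrier of retinol in blood, ranged from 0.0304 to 18.1 CPM in the 9 libraries and reached 169.7 CPM in the library labelled WT5. Adipor2, a receptor for adiponectin present in many tissues, was expressed in all libraries (77.6 to 148 CPM in the 9 and 234 CPM in the library labelled WT5), with a log2 fold change of 0.01 ± 0.18 without that library.

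The uptake genes were present at some level in every library except for the amino acid transporter Slc7a10. Fabp4 (ENSMUSG00000062515), the fatty acid binding protein of adipocytes, stood at 23.6, 846, 75.2, 1284 and 17.8 CPM in KO1 to KO5 and 9.21, 27.0, 140.1, 60.5 and 4466 CPM in WT1 to WT5. KO4 exceeded KO2 here, and KO3 at 75.2 CPM was well above KO1 and KO5. Lpl (ENSMUSG00000015568), lipoprotein lipase, which frees fatty acids from blood lipoproteins, stood at 33.1, 531, 27.3, 301 and 46.3 CPM in KO1 to KO5 and 18.1, 34.9, 112, 84.9 and 2089 CPM in WT1 to WT5. Cd36 (ENSMUSG00000002944), a fatty acid carrier of the cell surface, stood at 8.00, 201, 15.1, 257 and 11.1 CPM in KO1 to KO5 and 2.43, 4.79, 40.1, 13.8 and 945 CPM in WT1 to WT5. Both were highest in KO2 and KO4 among the 9 libraries, followed by WT3. Their log2 fold changes without the library labelled WT5 were 2.98 ± 1.40 for Fabp4, 1.61 ± 0.98 for Lpl and 2.73 ± 1.29 for Cd36 (SE, edgeR adjusted p = 0.454, 0.550 and 0.455).

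Slc2a4 (ENSMUSG00000018566), the insulin-responsive glucose transporter of fat and muscle, stood at 2.57, 23.1, 3.79, 14.8 and 5.32 CPM in KO1 to KO5 and 1.95, 4.92, 8.48, 6.54 and 464 CPM in WT1 to WT5. The library labelled WT5 was the highest by far, and KO2 and KO4 came next. Slc2a4 had the most negative log2 fold change with all 10 libraries, -4.13 ± 1.76 (SE, edgeR unadjusted p = 0.0403, adjusted p = 0.669), and 0.89 ± 0.68 without that library (adjusted p = 0.633). In the library labelled WT5 the muscle genes took 9.18% of counts, and their part in the levels of Slc2a4, Car3, Gpd1 and Lpl was not tested. Slc7a10, a neutral amino acid transporter of white adipocytes, was at 0 in KO3 and WT1 and reached 4.57 CPM in KO2, 2.68 CPM in KO4 and 5.24 CPM in the library labelled WT5.

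Of the enzymes that feed glycerol and pyruvate metabolism, Pck1 (ENSMUSG00000027513), a carboxykinase on the route to glycerol phosphate in fat, stood at 0.171, 132, 1.24, 141 and 3.03 CPM in KO1 to KO5 and 0, 0.319, 17.5, 6.71 and 899 CPM in WT1 to WT5. It was high in the same 3 libraries, with KO4 slightly above KO2, and its log2 fold change without the library labelled WT5 was 3.21 ± 1.96 (SE, edgeR adjusted p = 0.554). Pcx, pyruvate carboxylase, was expressed in all libraries, from 19.7 to 119 CPM in the 9 and 304 CPM in the library labelled WT5. Its log2 fold change of 0.22 ± 0.49 without that library turned to -0.26 without KO2 as well. Gpd1, glycerol-3-phosphate dehydrogenase, ranged from 33.5 to 159.6 CPM in the 9 libraries and stood at 2449 CPM in the library labelled WT5. Its log2 fold change was -3.44 ± 1.40 with all 10 libraries (SE, edgeR unadjusted p = 0.0331, adjusted p = 0.669) and 0.35 ± 0.39 without that library.

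The regulators split in the same way. Pparg (ENSMUSG00000000440), which encodes the nuclear receptor that drives adipocyte differentiation, stood at 1.77, 14.6, 1.97, 9.56 and 1.16 CPM in KO1 to KO5 and 0.942, 0.984, 3.19, 2.11 and 86.8 CPM in WT1 to WT5. KO2 and KO4 were the highest of the 9 libraries and WT3 the next. Cebpa (ENSMUSG00000034957), which encodes a C/EBP factor also used in epithelium and myeloid cells, stood at 47.0, 115, 46.5, 85.0 and 66.1 CPM in KO1 to KO5 and 61.2, 62.9, 70.0, 65.3 and 147 CPM in WT1 to WT5. KO2, KO4 and the library labelled WT5 were again highest, but the other 7 lay between 46.5 and 70.0 CPM. Its log2 fold change without the library labelled WT5 was 0.17 ± 0.25 (SE, edgeR adjusted p = 0.820) and -0.05 without KO2 as well, against 1.71 ± 0.82 for Pparg (adjusted p = 0.462). Mrap, an accessory protein of melanocortin receptors, and Acvr1c, an activin receptor of adipocytes, were at most 2.29 and 0.971 CPM outside the 3 high libraries, where Mrap stood at 9.69, 9.23 and 57.0 CPM and Acvr1c at 4.16, 4.05 and 18.3 CPM (KO2, KO4 and the library labelled WT5).

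Ucp1 (ENSMUSG00000031710), the uncoupling protein by which brown and beige adipocytes make heat, stood at 0.0286, 0.239, 0, 19.2 and 0.0594 CPM in KO1 to KO5 and 0, 0.0266, 1.16, 0.564 and 1172 CPM in WT1 to WT5. It was high in the library labelled WT5 and in KO4, near 0 in KO2, and did not pass the low-count filter in the comparison with or without that library, so it has no test. Car3 (ENSMUSG00000027559), a carbonic anhydrase abundant in adipocytes and slow muscle, stood at 13.0, 1144, 20.9, 551 and 13.3 CPM in KO1 to KO5 and 0.0912, 1.81, 153, 44.5 and 9509 CPM in WT1 to WT5. KO2 and KO4 were again the highest of the 9, and the log2 fold change without the library labelled WT5 was 2.83 ± 1.90 (SE, edgeR adjusted p = 0.586).

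Nnat (ENSMUSG00000067786), neuronatin, an imprinted membrane protein of fat, brain and endocrine cells, stood at 0.343, 32.4, 1.90, 17.9 and 1.28 CPM in KO1 to KO5 and 0.0912, 0.585, 4.72, 9.27 and 13.5 CPM in WT1 to WT5. Unlike the other adipocyte genes it was higher in WT4 than in WT3, and KO2 exceeded the library labelled WT5, also after TMM scaling (29.4 against 23.2 CPM). KO4 exceeded that library only before scaling. Sncg (ENSMUSG00000023064), gamma-synuclein, a protein of neurons and white adipocytes, stood at 0.857, 26.0, 1.13, 14.9 and 1.40 CPM in KO1 to KO5 and 0.426, 1.38, 3.01, 1.78 and 31.8 CPM in WT1 to WT5. The same 3 libraries were high. The log2 fold changes without the library labelled WT5 were 1.58 ± 1.42 for Nnat and 2.45 ± 1.12 for Sncg (SE, edgeR adjusted p = 0.688 and 0.442), and with all 10 libraries 0.47 ± 1.39 and -0.54 ± 1.42.

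To compare the makeup of the adipocyte signal rather than its amount, counts were set against Adipoq in the 5 libraries with at least 100 Adipoq counts (KO2, KO4, WT3, WT4 and the library labelled WT5; the others held 1 to 57). The intervals are exact 95% binomial intervals and cover counting error only. Of the 12 genes examined, which were chosen after their values were seen, Retn had the narrowest relative range, at 26.5, 29.9, 32.7, 26.1 and 21.1 counts per 100 Adipoq counts in that order of libraries. Adrb3 stood at 12.2 (11.2 to 13.3) in KO2 but at 0.483 (0.249 to 0.845) in KO4, which rests on 12 counts, and at 18.4 in WT3, 25.0 in WT4 and 18.4 in the library labelled WT5. KO4 therefore lay below the other 4 libraries by more than counting error.

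Ucp1 ran the other way. It stood at 0.145 (0.0583 to 0.299) counts per 100 Adipoq counts in KO2, which rests on 7 counts, and at 25.3 (23.2 to 27.7) in KO4. In WT3 it was 6.78 (4.98 to 9.03), in WT4 10.6 (6.21 to 17.0) and in the library labelled WT5 358 (349 to 367). The library labelled WT5 and KO2, both rich in Adipoq, were thus the extremes for the thermogenic gene. Its promoter is the one printed above that holds the nuclear receptor hexamer.

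Lep stood at 10.1 (9.17 to 11.1) and 16.1 (14.4 to 17.9) per 100 Adipoq counts in KO2 and KO4. The other 3 libraries were lower, at 3.79 (2.50 to 5.53) in WT3, 2.78 (0.891 to 6.60) in WT4 and 4.42 (3.98 to 4.91) in the library labelled WT5. The intervals of KO2 and KO4 lie above those of WT3, WT4 and the library labelled WT5. Only libraries with enough Adipoq entered, 2 knockout and 3 labelled wild type, so no test of genotype was made on these ratios. Car3 stood at 695, 728, 896 and 832 in KO2, KO4, WT3 and WT4 and at 2904 in the library labelled WT5. Cfd stood at 272 and 264 in KO2 and KO4, 478 and 474 in WT3 and WT4, and 294 in the library labelled WT5. The remaining genes examined did not part KO2 and KO4 from the others. Fabp4 was lowest in KO2 (514) and highest in KO4 (1696), with 821, 1131 and 1364 in WT3, WT4 and the library labelled WT5. Cidec stood at 58.8 and 126 in KO2 and KO4, and at 69.4, 53.3 and 77.9 in those 3 libraries.

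**Figure D4:**
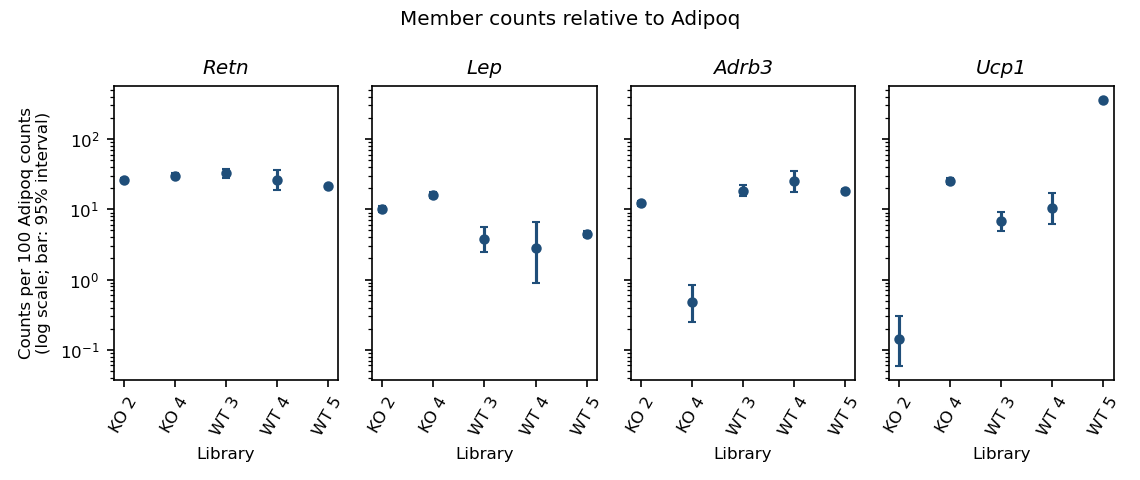
Counts of Retn, Lep, Adrb3 and Ucp1 per 100 Adipoq counts (log scale, bars are exact 95% binomial intervals) in the 5 libraries with at least 100 Adipoq counts. Retn stays between 21.1 and 32.7, whereas Adrb3 is low in KO4 (0.483) and Ucp1 is low in KO2 (0.145) and high in the library labelled WT5 (358).

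A further list of 19 white adipocyte genes, none of them among the 34, took 0.535% of counts in KO2, 0.415% in KO4 and 1.59% in the library labelled WT5, against 0.114% to 0.256% in the other 7. Scd1 was a large part of this share, at 2971, 2745 and 6123 CPM in KO2, KO4 and the library labelled WT5. It also reached 1616 CPM in WT1, where Adipoq rested on 1 count. With all 10 libraries 1 of 17 tested genes was higher in knockout, with a median log2 fold change of -1.50 (43.8% of all genes were higher). Without the library labelled WT5 it was 16 of 17, with a median of 0.70 (53.2% of all genes were higher). By edgeR 0 of 17 were called either way, with 1 and 0 at an unadjusted p under 0.05, where 7.00% and 11.6% of all genes were. Cyp2e1, a cytochrome P450 of liver and fat, was 68.0 CPM in KO2, 179.8 CPM in KO4 and 126.0 CPM in the library labelled WT5, against at most 6.52 CPM in the other 7. Dgat2, which makes triacylglycerol, was 103.8 and 27.9 CPM in KO2 and KO4 and at most 13.8 CPM in those 7. Klb, the co-receptor of FGF hormones, was 2.42 and 2.25 CPM, and Trarg1, a regulator of glucose transporter traffic, 26.0 and 17.2 CPM, against at most 0.743 and 4.62 CPM. Other genes of the list, named after their values were seen, did not share this order. Thrsp, a regulator of fat synthesis, stood at 207 CPM in KO4, below 240.2 to 362 CPM in WT1 to WT4, and had a log2 fold change of -0.17 ± 0.41 (SE). KO4 also lay within the range of the other 7 for Mlxipl (9.14 CPM), Pnpla3 (0.792 CPM) and Fasn (284 CPM), which control or carry out lipid synthesis and turnover. The same held for Lgals12 (16.1 CPM), Acaca (73.6 CPM) and Hcar1 (1.58 CPM).

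Genes of brown and beige adipocytes, which burn fat for heat, were mostly high in the library labelled WT5, although Zic1 had 0 counts there. Skeletal muscle genes took 9.18% of counts in that library, and their part in these levels was not tested. The brown and beige list took 0.110% of counts in the library labelled WT5 and 0.00127% to 0.00561% in the other 9. Of those, KO2, KO4 and WT3 were the highest (0.00561%, 0.00497% and 0.00462%). With all 10 libraries 0 of 8 tested genes were higher in knockout, with a median log2 fold change of -2.77 (43.8% of all genes were higher). Without the library labelled WT5 it was 7 of 8, with a median of 0.59 (53.2% of all genes were higher). By edgeR 0 of 8 were called either way, and 2 and 3 had an unadjusted p under 0.05, against 7.00% and 11.6% of all genes. Cidea (ENSMUSG00000024526), a droplet protein of brown fat that is also made in mammary epithelium, stood at 4.09, 15.0, 12.6, 14.7 and 4.64 CPM in KO1 to KO5 and 2.92, 3.78, 1.90, 1.72 and 439.6 CPM in WT1 to WT5. As for Plin5, all 5 knockout libraries lay above WT1 to WT4, with KO3 close to KO2 and KO4 although its Adipoq was 1.35 CPM. In these 9 libraries 5.44% of all genes were free of overlap in TMM-scaled CPM. With all 10 libraries the log2 fold change of Cidea was -3.97 ± 1.83 (SE, edgeR adjusted p = 0.669). Without the library labelled WT5 it was 2.03 ± 0.49 (SE, edgeR unadjusted p = 0.00218, adjusted p = 0.284). There DESeq2 called it (adjusted p = 0.00329), as it did 2.54% of all genes, and limma-voom did not (1.71, adjusted p = 0.0981). Cox7a1, Prdm16 and Ppargc1a, genes of the mitochondrial and thermogenic programme, had log2 fold changes of 0.49 ± 0.20, 1.45 ± 0.61 and 0.70 ± 0.32 (SE, edgeR adjusted p = 0.387, 0.411 and 0.440). Each of these genes was highest of the 9 libraries in KO1, where Adipoq was 1.26 CPM, and not in KO2 or KO4. Dio2, another gene of the list, named after its values were seen, was lower in knockout (-0.41 ± 0.79, SE).

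Of 10 adipocyte progenitor genes 1 was higher in knockout with all 10 libraries (median log2 fold change -0.76) and 6 without the library labelled WT5 (median 0.18). Of all genes, 43.8% and 53.2% were higher. By edgeR 0 of 10 were called either way, with 1 at an unadjusted p under 0.05 in each, where 7.00% and 11.6% of all genes were. Dlk1, the preadipocyte factor, was lower in knockout (-1.36 ± 0.47, SE, edgeR unadjusted p = 0.0170, adjusted p = 0.343), the 1 gene of the list at that p without the library labelled WT5. Pdgfra, a receptor of mesenchymal progenitors, ranged from 5.62 CPM in WT1 to 76.2 CPM in KO5 among the 9 libraries, and did not follow the order of Adipoq.

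Markers of other tissue moved with the adipocyte genes in part. In KO4 skeletal muscle genes took 0.175% of counts, against 0.0193% in KO3, the next highest of the 9 libraries, while in KO2 they took 0.00117%, as little as in KO5, WT1 and WT2 (0.00110% to 0.00125%). By edgeR 0 of 13 tested muscle genes were higher in knockout with all 10 libraries (median log2 fold change -6.32, 0 called, 3 at an unadjusted p under 0.05, where 7.00% of all genes were). Without the library labelled WT5 it was 13 of 13 (median 3.43, 0 called, 2 at an unadjusted p under 0.05, where 11.6% of all genes were). Luminal epithelial genes took 0.683% in KO2, within the range of the other 7 of the 9 libraries (0.580% to 0.720%), and 0.862% in KO4, above it. In the 9 libraries 5 of 11 were higher in knockout, and with all 10 libraries 10 of 11. Endothelial genes were highest of the 9 in KO2 (0.0295%) and KO4 (0.0234%), next to 0.0227% in WT4, and lowest in WT1 (0.00678%). Of these genes 8 of 8 were higher in knockout in the 9 libraries (median 0.36) and 0 of 8 with all 10 (median -0.63). Fibroblast genes took 0.0185% in WT1 and 0.193% to 0.835% in the others, where KO2 was high (0.814%) and KO4 was not (0.408%), and 7 of 8 were higher in knockout in the 9 libraries (median 0.41) and 3 of 8 with all 10 (median -0.25). Macrophage genes took 0.0313% to 0.0736% in the 9 libraries, KO4 and KO2 being the highest, and 3 of 7 were higher in knockout in the 9 libraries and 1 of 7 with all 10. By edgeR 0 genes of these 4 lists were called and 0 had an unadjusted p under 0.05 in either comparison. Of all genes, 53.2% were higher in knockout in the 9 libraries and 43.8% with all 10. The part of these other tissues in the adipocyte gene differences was not tested.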

How the data were processed

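RNA of 10 samples labelled as mammary tumours was selected for poly(A) and sequenced as stranded libraries, per the labels' protocols. The authors deposited raw counts per gene, 1 column per library. Per the submitters' processing notes, the tools were FastQC, STAR, featureCounts and DESeq2, with GRCm39. Versions, annotation release, strand setting and the handling of multi-mapping reads were not given in the sources used here. Symbols came from a gene name table, which named 52029 of the 57010 genes (99.66% of counts). Totals were 25.7 to 43.3 M counts, and shares carry 95% Wilson intervals.

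The genotypes were compared by edgeR's quasi-likelihood F-test (version 4.0.16, R 4.3.3; robust, TMM, filterByExpr). The call was a Benjamini-Hochberg adjusted p under 0.05 over all genes tested. SE is the size of the log2 fold change over the root of F. Levels are CPM of total counts rather than the planned TMM-scaled ones, so that they add up to the shares. Alternatives were RLE, library size alone, DESeq2 1.42.0, limma-voom (limma 3.58.1), no filter, 10 counts in every library, libraries summed by leading number and leaving out each library. The test was tried on simulated counts with the same spread for every gene and no outlying library. These data differ in both, so the trial does not show how the test performs on them. The members, lists and comparisons were chosen with earlier results of these data known. The rule names 23 members in every library, any member called, and up to 4 genes of each other list by smallest p.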

Additional observations from a re-analysis of the deposited data

Results flagged for a closer look

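In the library labelled WT5 the adipocyte genes together took 2.77% of counts, far from the next wild-type library at 0.144%. Of the 34 genes, 31 were also set apart there from the other 4 libraries labelled wild type; Nnat, Mgll and G0s2 were not. Each stood alone by the size of its gap to the nearest library, measured against the range of the group. Among lipid droplet genes it held Plin1 at 364, Plin4 at 276, Plin5 at 55.2 and Cidec at 255 CPM. Among lipolysis genes it held Pnpla2 at 975, Lipe at 225, Adrb3 at 60.2, Aqp7 at 55.2, Ces1d at 429 and Ces1f at 25.0 CPM. Adipokines stood there with Adipoq at 327, Lep at 14.5, Retn at 69.2, Cfd at 961, Adipor2 at 234 and Rbp4 at 169.7 CPM. Uptake genes stood there with Fabp4 at 4466, Lpl at 2089, Cd36 at 945, Slc7a10 at 5.24 and Slc2a4 at 464 CPM. Enzymes of glycerol and pyruvate metabolism stood there with Pck1 at 899, Pcx at 304 and Gpd1 at 2449 CPM. Regulators stood there with Pparg at 86.8, Acvr1c at 18.3, Cebpa at 147 and Mrap at 57.0 CPM, and the remaining genes with Car3 at 9509, Ucp1 at 1172 and Sncg at 31.8 CPM.

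Within the knockout group KO2 stood alone for Adrb3, the adrenergic receptor of lipolysis, at 20.2 CPM with the next library at 0.366 CPM. KO4 stood alone for Ucp1, the uncoupling protein of brown fat, at 19.2 CPM with the next at 0.239 CPM. Among WT1 to WT4, WT1 stood alone for Mgll, monoacylglycerol lipase, at 249 CPM with the next at 131 CPM. The gap rule was applied to 105 groups of values, and 3 were set apart outside the library labelled WT5. Its nominal rate of 5% assumes independent, normally distributed values. These are CPM of genes that vary together, in groups that overlap, so the 3 cannot be set against that rate. The 32 values of the library labelled WT5 come from 1 library and are not independent.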

How the results depend on the processing

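Values here are log2 fold changes of knockout over wild type unless said otherwise, and the cause of each change was not tested. With all 10 libraries the numbers of genes called were 50 by DESeq2, 17 by limma-voom with sample quality weights and 0 to 2 on leaving out each library in turn, against 0 by edgeR. In the 9 libraries without the one labelled WT5 they were 433 by DESeq2, 143 by limma-voom, 1 with library size alone, 0 on summed libraries and 0 to 1 on leaving out a further library, against 2. The 34 genes had 1 call among these, Plin5 by DESeq2. RLE scaling turned no direction, nor did a minimum of 10 counts in every library for the 17 of 34 genes that it left to test.

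With all 10 libraries limma-voom turned the sign of these genes, to Plin4 0.83, Plin5 1.25, Cidec 0.35, Pnpla2 0.30, Pparg 0.24, Cd36 0.28, Car3 0.14, Nnat -1.05, Sncg 0.24, Mgll 0.46, Gpd1 0.0076 and Ces1d 0.47. Library size alone gave Slc7a10 0.28, Sncg 0.20 and Mgll 0.12, and moved the median of all genes from -0.06 to 0.07 and that of the adipocyte genes from -1.84 to -1.04. Summing libraries with the same leading number gave Lep -0.58. Leaving out 1 library gave these ranges, whose upper ends are mostly those without the library labelled WT5: Adipoq -2.56 to 3.12, Plin1 -3.17 to 3.11, Plin4 -2.21 to 3.33, Plin5 -2.51 to 1.75, Cidec -1.98 to 3.44, Lep -0.63 to 4.71, Fabp4 -2.84 to 2.98, Retn -2.04 to 2.92, Cfd -2.68 to 2.33, Pnpla2 -1.24 to 0.75, Lpl -2.94 to 1.61, Pparg -3.13 to 1.71, Lipe -2.02 to 0.92, Cd36 -2.65 to 2.73, Adrb3 -6.98 to 1.67, Car3 -4.48 to 2.83, Aqp7 -3.71 to 1.92, Slc7a10 -1.44 to 2.71, Acvr1c -2.51 to 1.92, Cebpa -0.76 to 0.17, Slc2a4 -4.66 to 0.89, Pck1 -3.34 to 3.21, Adipor2 -0.84 to 0.0076, Mrap -3.11 to 2.35, Rbp4 -4.44 to 2.23, Nnat -0.47 to 1.58, Sncg -1.42 to 2.45, Pcx -1.93 to 0.22, Mgll -0.69 to 0.65, Gpd1 -3.74 to 0.35, Ces1d -3.11 to 1.78 and Ces1f -3.23 to 3.24. Nnat was lower in knockout without KO2, and Lep without any 1 of KO2, KO4 and WT1 to WT4.

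In the 9 libraries limma-voom turned the sign of these, to Plin1 -0.55, Fabp4 -0.050, Retn -0.062, Cfd -0.20, Lpl -0.11, Lipe -0.092, Adrb3 -1.96, Aqp7 -0.094, Slc7a10 -0.48, Acvr1c -0.059, Cebpa -0.040, Slc2a4 -0.21, Pck1 -0.81, Mrap -0.88, Nnat -1.06, Pcx -0.22 and Ces1f -1.16. Adipor2 was -0.011 with library size alone and -0.013 with no filter. Leaving out a further library turned the sign for Adrb3 -2.82 to 2.61, Cebpa -0.046 to 0.29, Adipor2 -0.13 to 0.11 and Pcx -0.26 to 0.43. Other ranges, whose low end was mostly without KO2 or KO4 and whose high end was without WT3 for 24 of 33 genes, were Adipoq 1.91 to 4.72, Plin1 2.19 to 4.60, Plin4 2.31 to 4.89, Cidec 2.74 to 5.36, Lep 4.30 to 6.20, Fabp4 2.02 to 3.86, Retn 1.84 to 4.60, Cfd 1.13 to 3.94, Lpl 0.78 to 2.05, Pparg 1.07 to 2.13, Cd36 1.93 to 3.86, Car3 1.68 to 4.51, Aqp7 1.13 to 2.25, Slc7a10 2.32 to 3.53, Acvr1c 1.34 to 2.51, Pck1 2.45 to 4.60, Mrap 1.94 to 3.88, Rbp4 1.21 to 3.04, Nnat 0.63 to 2.60, Sncg 1.55 to 2.91, Ces1d 1.18 to 2.48 and Ces1f 2.83 to 4.37.

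The ratio of mean adipocyte shares, knockout over wild type, ran from 0.277 to 2.54 on leaving out 1 of the 10 libraries. In the 9 libraries it was 2.54, and ran from 1.82 without KO2 to 3.04 without WT3. From Adipoq, Plin1, Cidec and Lep alone it was 9.47, a value that rested on KO2 and KO4. These genes took 0.0362% and 0.0239% of counts there, but 0.000260%, 0.000423% and 0.000392% in KO1, KO3 and KO5. The latter values lay within the range of WT1 to WT4 (1.52e-05% to 0.00393%). No paired analysis was possible because the labels give no replicate number shared between the groups. Ucp1 had no test in either comparison because few libraries held counts of it; it passed the filter in some of the fits with fewer or summed libraries. Depth limits genes with a few counts in the low libraries.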
